A study of Saccharomyces cerevisiae with 70 samples.

Results

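The late window of a menadione time course in budding yeast (Saccharomyces cerevisiae) was described here: the arrays of 100, 120, 140, 170 and 210 min at 2 mM menadione, chosen by the dose and time in their labels. They are 5 of the 14 arrays of the course and 5 of the 70 arrays of the series, which also holds another menadione course and a pair of hydrogen peroxide courses. They were set against the 3 arrays of 0, 14 and 20 min, with 2 arrays of 30 and 40 min and 4 arrays of 55, 70, 77 and 85 min between them. On every array the Cy5 channel held RNA of the experiment and the Cy3 channel RNA of an asynchronous culture grown to an optical density of 0.56, so each value is a log ratio to that reference. The labels of this course name no strain, no synchronisation, no moment of menadione addition and no untreated course run beside it.

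Each time is a single array of a single culture. Time points of a window therefore stand in for replicates, and every p-value below measures the spread between time points, not between cultures. The optical density of the sample was 0.74 or more in the late window, against 0.32 to 0.4 at 0 to 20 min, so time in menadione and cell density cannot be told apart. The base of the deposited log ratios is not stated and was taken as 2. Their direction is not stated either: it was taken as Cy5 over Cy3, which is likely from the dye labels and not settled. With the sign turned, every rise below would read as a fall. The list of mating pheromone genes had a median log2 ratio of 0.88 on the 0 min array under this direction.

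Menadione is a quinone that takes single electrons from cellular reductases and passes them to oxygen, which makes superoxide and then hydrogen peroxide, and it also binds thiols directly. Yeast meets such stress with superoxide dismutases, peroxidases, and the thioredoxin and glutathione systems that reduce oxidised thiols with electrons from NADPH, which the pentose phosphate pathway supplies. The transcription factor Yap1 drives many of these genes. A wider stress programme raises protective genes of the Msn2 and Msn4 factors and lowers the genes of ribosomes and of their assembly.

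In the late window 73 of 5552 genes tested differed from 0 to 20 min at an adjusted p under 0.05, which is 1.31% of the genes (moderated test of limma with Benjamini-Hochberg adjustment). Of these 61 rose (1.1%) and 12 fell (0.216%), while the median change of all genes tested was 0.01 on the log2 scale. The genes that rose did so by 1.57 to 6.17, with a median of 2.67, and those that fell changed by -2.31 to -1.74. An unadjusted p under 0.05 was reached by 770 genes. Of the 71 called genes with a value on all 8 arrays, 70 had 5 late values all above or all below the 3 values of 0 to 20 min. The exception was GID8, a subunit of a ubiquitin ligase. Over all 5428 genes measured on the 8 arrays, 291 had all late values above (5.36%) and 259 all below (4.77%).

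The count depended on single arrays. It was 22 genes without the 20 min array, 38 without 14 min, 46 without 170 min and 47 without 120 min. In the list of quinone and carbonyl reductases 7 of 18 tested genes rose, beside 1.1% of all genes. The same held for 5 of 13 thioredoxin and peroxiredoxin genes and 5 of 30 general stress genes. Of the 61 rises, 28 were in no list. Cytosolic ribosomal protein genes were 4 of the 12 falls, out of 133 tested, beside 0.216% of all genes.

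**Figure D1:**
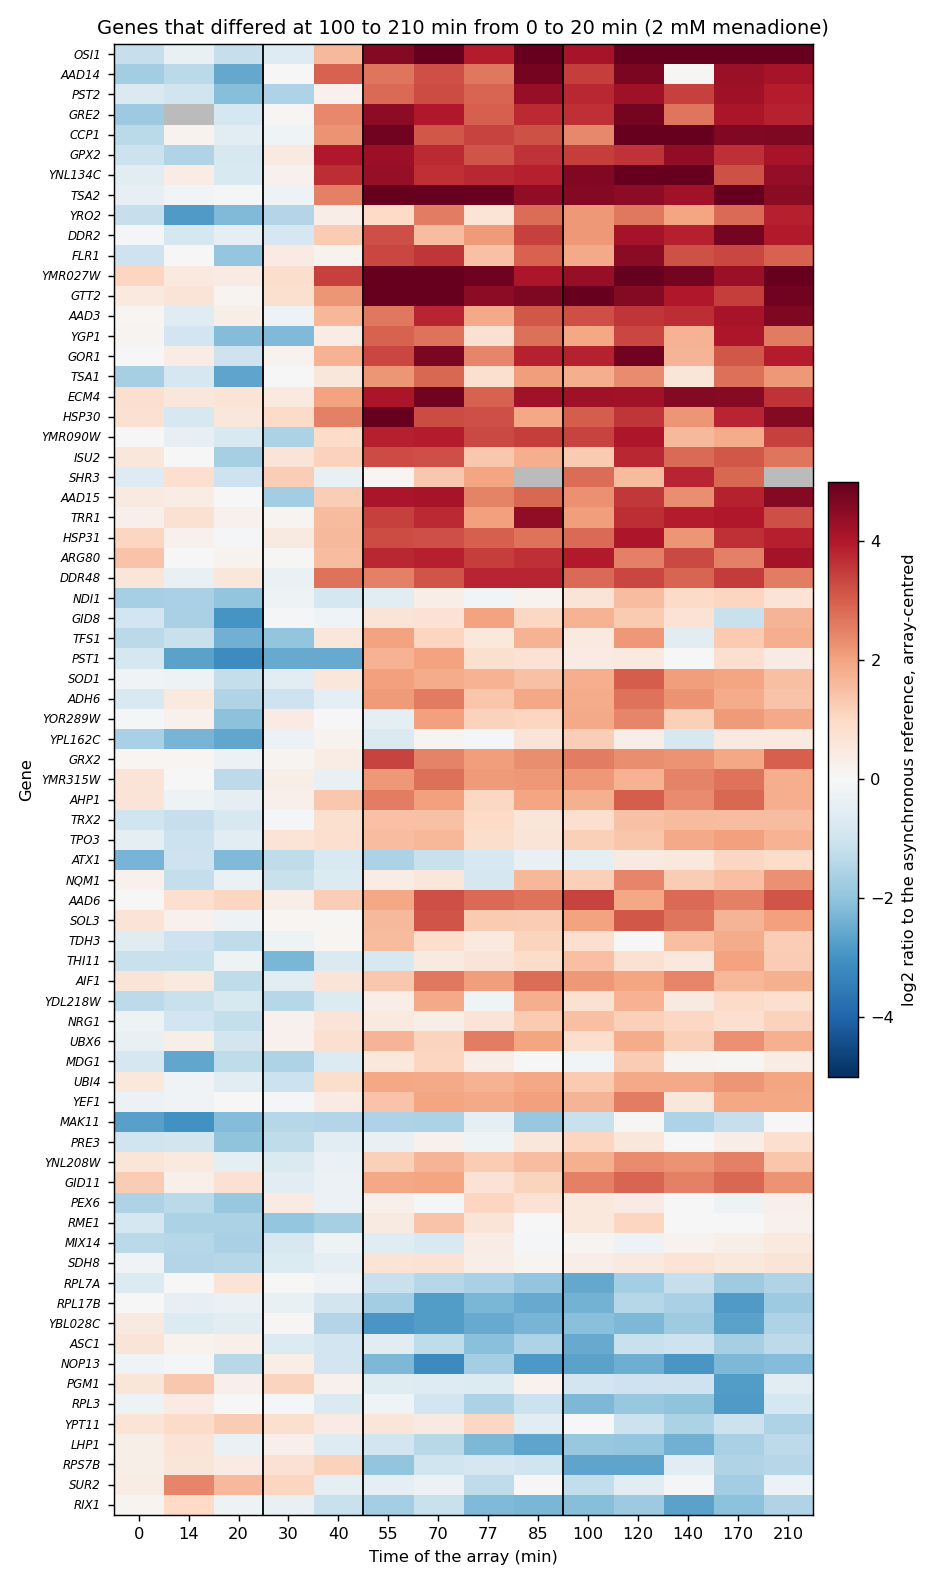
Values of the 73 called genes (rows, ordered by their change at 100 to 210 min against 0 to 20 min) on the 14 arrays of the course (columns, in min). Colour gives the log2 ratio to the asynchronous reference after centring each array on its median, cut at 5 in either direction, grey marks missing values and black lines part the windows. The 61 upper genes have higher values at 100 to 210 min than at 0 to 20 min, and the 12 lower genes have lower ones.

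The largest rise belonged to OSI1 (YKL071W), an oxidative stress induced gene of unknown function. Its log2 ratio was 4.10, 5.56, 5.64, 5.50 and 5.57 at 100, 120, 140, 170 and 210 min, against -1.14, -0.39 and -1.17 at 0, 14 and 20 min. The late values sat close together apart from the lower one at 100 min, and all lay far above the earlier ones. The change was 6.17 ± 0.55 (SE) with an adjusted p of 1.39e-05. YNL134C, an aldehyde reductase by later annotation, reached 4.64, 5.91, 5.12, 3.19 and 4.41 at 100 to 210 min, against -0.53, 0.39 and -0.77 at 0 to 20 min. It rose by 4.95 ± 0.66 (SE, adjusted p = 0.00037). YMR027W, a gene with no standard name on this array, rose by 4.15 ± 0.53 (SE, adjusted p = 0.000316) from a level already above the reference, with 4.29 to 5.48 late, against 0.40 to 1.09 at 0 to 20 min.

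Enzymes that reduce quinones and carbonyls formed the list with the most calls. These include AAD3, AAD6, AAD14 and AAD15, whose spots may share signal, so the calls are not all separate. Of 18 measured members 7 rose and none fell, beside 1.1% and 0.216% of all genes, with a median change of 1.90. Of the 16 measured on all 8 arrays 9 had every late value above the earlier ones, beside 5.36% of all genes. PST2 (YDR032C), a flavodoxin-like protein of the NAD(P)H quinone oxidoreductase family, had log2 ratios of 3.77, 4.23, 3.42, 4.25 and 3.94 in the late window, against -0.72, -1.01 and -2.12 at 0 to 20 min. Its late values spread little, with an SD of 0.345 over 5 arrays, and it rose by 5.21 ± 0.48 (SE, adjusted p = 1.39e-05).

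GRE2 (YOL151W), an NADPH-dependent methylglyoxal reductase, had 3.64, 4.79, 2.67, 4.07 and 3.85 late, against -1.82 and -0.89 at 0 and 20 min. It had no value at 14 min, so its rise of 5.16 ± 0.64 (SE, adjusted p = 0.000316) rests on 2 early arrays. ADH6, an NADPH-dependent alcohol dehydrogenase, rose by 2.62 (adjusted p = 0.0062). AAD3, AAD6, AAD14 and AAD15, putative aryl-alcohol dehydrogenases closely related in sequence, rose by 3.93, 2.11, 5.21 and 3.05, and a spot of one may bind RNA of another.

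AAD14 had 3.45, 4.69, 0.06, 4.31 and 4.14 at 100 to 210 min, against -1.75, -1.33 and -2.55 at 0 to 20 min. The value of 140 min stood apart from the other late values, though it was still above the early ones. The 4 probes of AAD6 differed, with late changes of -1.45, 0.02, 4.18 and 5.18. The old yellow enzymes, flavoproteins that reduce quinones and enones, were not called: OYE2 changed by 0.14 (adjusted p = 0.929) and OYE3 by 2.81 (adjusted p = 0.135), where the 20 min array stood at 3.41. LOT6, a quinone reductase, was the single member with a negative change, at -0.25 (adjusted p = 0.89).

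Thioredoxin and peroxiredoxin genes had the highest median of the 34 lists, 2.20 over 13 members. Of these 5 rose, beside 1.1% of all genes, and none fell. Every late value was above the earlier ones for 8 of the 13, beside 5.36% of all genes. TSA2 (YDR453C), a cytosolic peroxiredoxin, had 4.60, 4.47, 4.19, 5.13 and 4.51 at 100 to 210 min, against -0.42, -0.15 and -0.05 at 0 to 20 min. Both windows were tight, and the rise was 4.78 ± 0.54 (SE, adjusted p = 0.000141). TSA1 (YML028W), the main cytosolic peroxiredoxin, had 1.83, 2.37, 0.62, 2.77 and 2.16 late, against -1.68, -0.84 and -2.62 early. It rose by 3.66 ± 0.55 (SE, adjusted p = 0.00126), and since both genes are close in sequence their spots may share signal.

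TRR1, the cytosolic thioredoxin reductase, had 2.07, 3.68, 3.92, 4.01 and 3.21 late, against 0.26, 0.77 and 0.20 early, a rise of 2.97 ± 0.55 (SE, adjusted p = 0.0084). AHP1, a peroxiredoxin that acts on alkyl hydroperoxides, rose by 2.39 (adjusted p = 0.011). TRX2 (YGR209C), a cytosolic thioredoxin, rose by 2.37 ± 0.37 (SE, adjusted p = 0.00175), from late values of 0.83, 1.47, 1.60, 1.53 and 1.56, against -0.98, -1.15 and -0.79 early. Its 2 probes differed, however, at 4.87 and -0.13, so the gene's value is an average of unlike spots. PRX1, the mitochondrial peroxiredoxin, changed by 3.33 (adjusted p = 0.0538) and SRX1, the sulfiredoxin that repairs peroxiredoxins, by 2.20 (adjusted p = 0.0699), neither of which passed. TRX1, the other cytosolic thioredoxin, changed by 0.78 (adjusted p = 0.36). DOT5, a nuclear peroxiredoxin, had the only negative change of the list, -0.82 (adjusted p = 0.411).

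**Figure D2:**
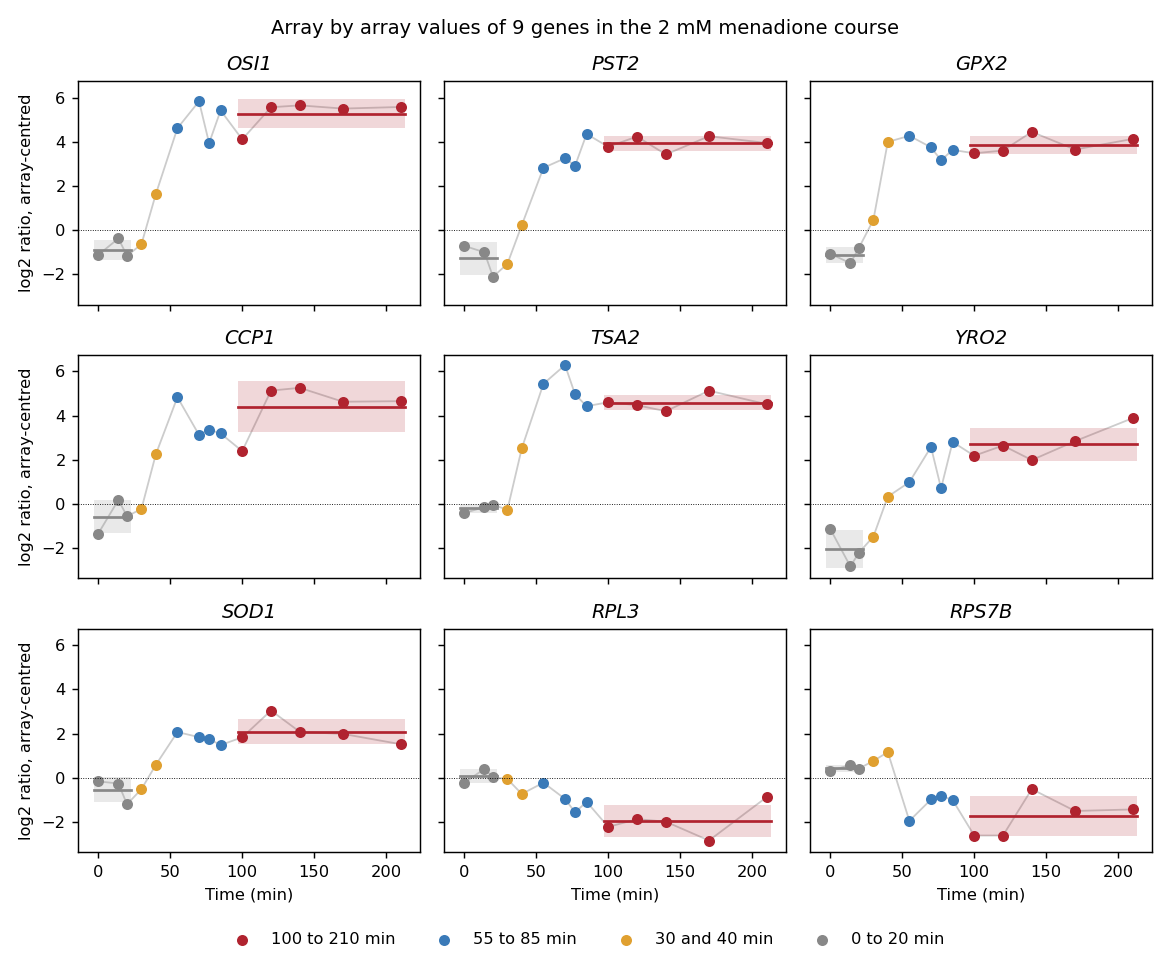
Log2 ratio to the asynchronous reference, array-centred, of 9 genes on the 14 arrays of the course against time in min. Points are single arrays coloured by window, and the red and grey bars with bands give the mean and SD of the 5 arrays of 100 to 210 min and of the 3 arrays of 0 to 20 min. OSI1, PST2, GPX2, CCP1, TSA2, YRO2 and SOD1 are above their early values throughout the late window, and RPL3 and RPS7B are below them.

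Of 20 glutathione and glutaredoxin genes 4 rose, beside 1.1% of all genes, and none fell, with a median change of 0.79. GPX2 (YBR244W), a glutathione peroxidase, had 3.47, 3.60, 4.44, 3.64 and 4.12 in the late window, against -1.07, -1.51 and -0.80 at 0 to 20 min. The windows were far apart relative to their spread, and the rise was 4.99 ± 0.58 (SE, adjusted p = 0.000169). GTT2, a glutathione S-transferase, had 5.06, 4.61, 3.99, 3.47 and 4.83 late, against 0.49, 0.64 and 0.12 early, a rise of 3.97 ± 0.47 (SE, adjusted p = 0.000169). ECM4, an omega class glutathione transferase, rose by 3.54 (adjusted p = 0.000316) and GRX2, a glutaredoxin, by 2.45 (adjusted p = 0.00175). The other 16 members were not called.

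Among these were the enzymes that make and recycle glutathione. GSH1, which catalyses the committed step of glutathione synthesis, had 1.72, 1.29, 1.30, 1.39 and 3.16 late, against 0.47, -0.47 and -0.93 early. All late values were above the early ones, and its change of 2.08 ± 0.54 (SE) did not pass at an adjusted p of 0.0738. The 1 of its 2 probes that could be fitted alone changed by 2.42 and passed (adjusted p = 0.0171 over all probes). GLR1, the glutathione reductase, had 1.84, 1.27, -0.33, 1.10 and -0.01 late, against 0.49, 0.28 and 0.81 early. Its windows overlapped, and its change was 0.25 (adjusted p = 0.864).

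Among 7 genes of superoxide and peroxide removal 2 rose, beside 1.1% of all genes, with a median change of 1.17. SOD1 (YJR104C), the copper and zinc superoxide dismutase of the cytosol, had 1.83, 3.04, 2.07, 1.98 and 1.52 late, against -0.17, -0.27 and -1.21 early. It rose by 2.64 ± 0.42 (SE, adjusted p = 0.00221), and its 2 probes were alike at 2.60 and 2.67. CCP1 (YKR066C), the mitochondrial cytochrome c peroxidase, had 2.39, 5.13, 5.26, 4.63 and 4.65 late, against -1.35, 0.17 and -0.56 early. The array of 100 min was the lowest of the late ones, and the rise was 4.99 ± 0.67 (SE, adjusted p = 0.000422). SOD2, the mitochondrial manganese enzyme, changed by 1.24 (adjusted p = 0.137), as a mean over 3 probes that ran from -1.26 to 3.14. The highest of them passed alone (adjusted p = 0.00163 over all probes), and the others did not. CTT1, the cytosolic catalase, changed by 1.17 (adjusted p = 0.307), and CCS1, the copper chaperone of Sod1, by -0.31 (adjusted p = 0.793).

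The pentose phosphate pathway, a source of NADPH, had a median change of 1.04. It had 2 of 11 members called, both higher, beside 1.1% of all genes. SOL3, a 6-phosphogluconolactonase, rose by 2.10 ± 0.47 (SE, adjusted p = 0.0324), with 2.02, 3.12, 2.66, 1.72 and 2.06 late, against 0.69, 0.23 and -0.27 early. The 1 of its 2 probes that could be fitted alone changed by 1.69 and did not pass (adjusted p = 0.118). NQM1, a transaldolase, rose by 2.18 ± 0.52 (SE, adjusted p = 0.049), and neither of its probes passed alone (adjusted p = 0.146 and 0.0693). ZWF1, the glucose-6-phosphate dehydrogenase that opens the pathway, changed by 2.15 ± 0.52 (SE) and missed the threshold at an adjusted p of 0.0504, with every late value (1.92 to 3.88) above the early ones (0.48 to 1.36). RKI1, an isomerase of the non-oxidative branch, changed by -1.24 (adjusted p = 0.279). YEF1, an NADH kinase that makes NADPH, rose by 1.90 (adjusted p = 0.0265), but its 4 probes ran from 0.02 to 3.22. None of them passed alone (adjusted p = 0.0523 to 0.993).

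General stress genes, a list of 30, gave 5 rises, beside 1.1% of all genes, and no fall. Their median change was 1.29, and 29 of the 30 changes were positive, against 2811 of 5552 over all genes tested. YRO2 (YBR054W), a plasma membrane protein, had 2.18, 2.64, 1.98, 2.84 and 3.88 late, against -1.14, -2.84 and -2.21 early, a rise of 4.76 ± 0.60 (SE, adjusted p = 0.000316). DDR2, a multi-stress response gene, had 2.19, 4.17, 3.89, 4.80 and 3.97 late, against -0.07, -0.86 and -0.46 early, a rise of 4.27 ± 0.60 (SE, adjusted p = 0.00062). YGP1, a secreted glycoprotein, rose by 3.72 (adjusted p = 0.00923), HSP31, a glyoxalase and chaperone, by 2.91 (adjusted p = 0.00221) and TFS1, an inhibitor of carboxypeptidase Y, by 2.67 (adjusted p = 0.0497). HSP12, a small membrane-stabilising protein often used as a marker of this programme, changed by 1.90 and did not pass (adjusted p = 0.127). Its 4 probes ran from -0.05 to 4.39. The highest of them passed alone (adjusted p = 0.0041 over all probes), and the others did not.

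Trehalose and glycogen genes had a median change of 0.86 over 17 members, with no rise called and 1 fall, beside 0.216% of all genes. The fall was PGM1, the minor phosphoglucomutase, whose late values were -0.96, -1.03, -1.05, -2.79 and -0.53, against 0.61, 1.36 and 0.27 early. It changed by -2.02 ± 0.48 (SE, adjusted p = 0.0497), close to the threshold. Its paralog PGM2, the major isoform, changed by 2.29 (adjusted p = 0.11). Of 29 chaperone genes none was called, with a median of 0.29, and HSP104, the disaggregase, changed by 1.90 (adjusted p = 0.182).

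Drug exporters, a list of 13, had a median change of 0.53. The 1 call among them, beside 1.31% of all genes, was FLR1 (YBR008C), a plasma membrane exporter of drugs. It had 1.90, 4.52, 3.18, 3.32 and 2.94 late, against -1.04, -0.03 and -1.95 early, a rise of 4.18 ± 0.59 (SE, adjusted p = 0.00062). The early values were themselves nearly 2 log2 units apart, yet all lay below the late ones. SNQ2, another exporter, changed by 1.38 (adjusted p = 0.0844) and PDR5 by 0.05 (adjusted p = 0.975). None of 14 regulators of the oxidant response was called, with a median of 0.40. YAP1 had 1.75, 1.74, 0.33, 0.08 and 0.81 late, against 0.13, 0.26 and -1.04 early, and its change of 1.16 ± 0.53 (SE) did not pass (adjusted p = 0.341).

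In mitochondria, NDI1 (YML120C), the internal NADH dehydrogenase, had 0.63, 1.55, 0.98, 1.06 and 0.68 late, against -1.68, -1.60 and -1.98 early. Its early values were alike, and it rose by 2.73 ± 0.36 (SE, adjusted p = 0.000368). It was the 1 called gene of 44 in the list of the TCA cycle and respiration, beside 1.31% of all genes. The list had a median of 0.48 with 38 positive changes. ISU2, a scaffold for iron-sulfur clusters, rose by 3.10 ± 0.61 (SE, adjusted p = 0.0139), and its paralog ISU1 changed by -0.20 (adjusted p = 0.878). ISU2 was the 1 call among 15 tested genes of iron-sulfur assembly, beside 1.31% of all genes. ATX1, a cytosolic copper chaperone that serves the iron uptake system and was first found as an antioxidant factor, rose by 2.35 ± 0.44 (SE, adjusted p = 0.00902). Its late values were -0.46, 0.47, 0.54, 1.03 and 0.92, against -2.31, -1.04 and -2.19 early. ATX1 was the 1 call among 27 iron uptake genes, beside 1.31% of all genes. The other 26 were not called, among them FET3, the ferroxidase, at -0.81 (adjusted p = 0.461).

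Of 37 proteasome genes 1 rose, beside 1.1% of all genes. It was PRE3, a catalytic subunit, which rose by 1.88 ± 0.40 (SE, adjusted p = 0.0255), and the median change of the list was 0.29. Neither probe of PRE3 passed alone (adjusted p = 0.131 and 0.0608 over all probes). RPN4, the transcription factor of proteasome genes, changed by 1.70 (adjusted p = 0.137), with late values of 0.78 to 2.68, against 0.04 to 0.51 early. Outside the lists, UBI4, the polyubiquitin gene, rose by 1.91 (adjusted p = 0.0315), and neither of its probes passed alone (adjusted p = 0.0551 and 0.181). GID8 and GID11, which serve the ubiquitin ligase that removes gluconeogenic enzymes, rose by 2.72 (adjusted p = 0.0315) and 1.84 (adjusted p = 0.0255).

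Cytosolic ribosomal protein genes formed the largest list, with 133 members, of which 4 fell, beside 0.216% of all genes, and none rose. Their median change was -0.95, 123 changes were negative and 10 positive. For 51 of the 133 every late value was below the early ones, beside the 4.77% of all genes. RPL3 (YOR063W), a protein of the large subunit, had -2.23, -1.88, -2.0, -2.85 and -0.88 late, against -0.24, 0.40 and 0.02 early, and fell by 2.03 on the log2 scale (SE 0.44, adjusted p = 0.0289). RPS7B, of the small subunit, had -2.62, -2.62, -0.52, -1.51 and -1.44 late, against 0.28, 0.59 and 0.41 early, and fell by 2.17 (SE 0.47, adjusted p = 0.0263). RPL17B and RPL7A fell by 1.76 (adjusted p = 0.0354) and 1.74 (adjusted p = 0.0458). Of the 4 probes of RPL7A, 3 could be fitted alone and changed by -1.54, -1.33 and -1.24, each less than the gene's mean, and none of them passed (adjusted p = 0.17 to 0.367). The 2 probes of RPL17B changed by -2.24, which passed (adjusted p = 0.0123), and -1.27, which did not (adjusted p = 0.391). Most of these genes have a near-identical paralog, so the spots may read both copies. RPL25, of the large subunit, had a positive change of 2.33 that did not pass (adjusted p = 0.134).

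The list's median by array was -1.72, -1.53, -0.85, -1.56 and -0.91 at 100, 120, 140, 170 and 210 min, against -0.37, -0.26 and -0.36 at 0, 14 and 20 min. All late arrays were below all early ones, and those of 140 and 210 min were the least low. Translation factors had a median change of -0.67 over 37 genes, 34 of them negative. Ribosome biogenesis genes had -0.51 over 88 genes, 70 of them negative, with no call in either list. The biogenesis list does not hold every assembly gene. MAK11, a large-subunit assembly factor outside it, was called in the other direction, with a rise of 1.89 (SE 0.45, adjusted p = 0.0497). NOP1, the rRNA methyltransferase fibrillarin, changed by -1.63 (adjusted p = 0.153), with every late value below the early ones. RNA polymerase I and III genes had a median of -0.18 over 21 members and no call.

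Of the other 8 falls, 7 were outside the lists. RIX1, which takes part in maturation of the large subunit, had -2.12, -1.80, -2.69, -2.04 and -1.5 late, against 0.12, 0.99 and -0.27 early, and fell by 2.31 (SE 0.42, adjusted p = 0.00777). Of its 2 probes only 1 had enough values to be fitted alone, and that probe changed by -1.60 without passing (adjusted p = 0.149 over all probes). LHP1, the yeast La protein that binds RNA polymerase III transcripts, fell by 2.06 (adjusted p = 0.0263), NOP13, a nucleolar protein, by 1.93 (adjusted p = 0.0436), and ASC1, a protein of the small ribosomal subunit that acts in signalling, by 1.89 (adjusted p = 0.0325). SUR2, the sphinganine hydroxylase of sphingolipid synthesis, fell by 2.25 (adjusted p = 0.0472), and YPT11, a small GTPase of organelle inheritance, by 2.03 (adjusted p = 0.0255). YBL028C, a nucleolar protein, fell by 1.81 (adjusted p = 0.0476), and neither of its probes passed alone (adjusted p = 0.0856 and 0.155). None of the 12 falls stayed called under all 18 other settings tried.

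**Figure D3:**
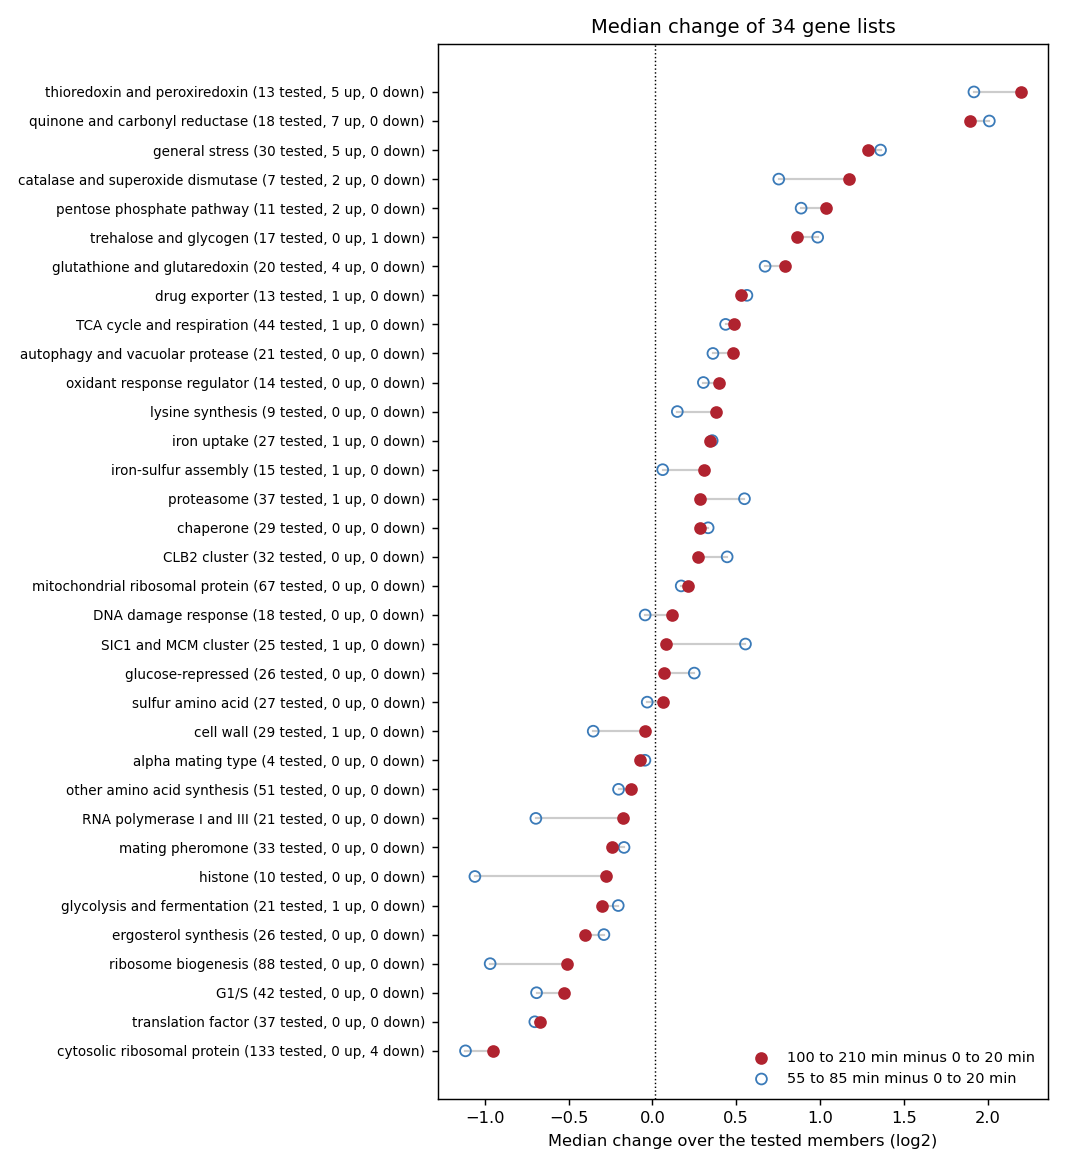
Median change (log2) of the tested members of 34 gene lists at 100 to 210 min against 0 to 20 min (filled) and at 55 to 85 min against the same 3 arrays (open), with the number of members tested and called at 100 to 210 min beside each name. The dotted line is the median of all genes tested, 0.01. Thioredoxin and quinone reductase genes stand at 2.20 and 1.90 and cytosolic ribosomal protein genes at -0.95.

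In all, 38 of the 73 called genes were in a list, and 16 of the 34 lists had a call, beside 1.31% of all genes called. The share of all tested genes that the lists hold was not counted, so nothing is read from these numbers. Amino acid lists had no call: 27 sulfur amino acid genes had a median change of 0.06, 9 lysine genes 0.38 and 51 others -0.13. MET16, which makes sulfite, had 0.34, 0.47, 0.77, 0.31 and 1.92 late, against -2.03, -0.70 and -0.24 early, and its change of 1.75 did not pass (adjusted p = 0.109). LYS20, the homocitrate synthase, changed by 1.65 (adjusted p = 0.0999). Glycolysis and fermentation genes had a median of -0.30 over 21 members. TDH3, the main glyceraldehyde-3-phosphate dehydrogenase, was the 1 call of that list, beside 1.31% of all genes, at 2.06 (adjusted p = 0.0223). Its 2 probes, however, gave 0.15 and 3.97, and the TDH genes are near-identical in sequence. PST1, a cell wall protein, rose by 2.67 (adjusted p = 0.00697). It was the 1 call among 29 cell wall genes, beside 1.31% of all genes, and the median of the list was -0.04.

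Cell cycle lists differed among the 0 to 20 min arrays themselves, so their late change depends on which early array it is read against. The histone list had median ratios of -1.74, -0.72, -1.23, -1.25 and -0.74 at 100 to 210 min, against -2.64, -0.36 and 0.19 at 0, 14 and 20 min. The G1/S list stayed between -0.12 and 0.02 in the late window, against -0.17, 0.89 and 0.60 at 0 to 20 min. The mating pheromone list was between -0.11 and 0.30 late, against 0.88, 0.20 and -0.13 early. None of 10 histone genes, 42 G1/S genes, 32 CLB2 cluster genes or 33 mating genes was called. RME1, a repressor of meiosis, was the 1 call among 25 genes of the SIC1 and MCM cluster, beside 1.31% of all genes. It changed by 1.71 (adjusted p = 0.0445). Its probes fitted alone changed by 0.99 and 1.90, and neither passed (adjusted p = 0.637 and 0.158 over all probes). CLB2, the main mitotic cyclin, had -2.01, -2.06, 0.54, -0.48 and -0.13 late, against -2.70, -1.53 and -2.27 early, and CLN2, a G1 cyclin, had -0.15, 0.44, -0.25, -0.01 and -0.10, against -2.01, 0.02 and -0.24. Neither change passed, at 1.34 (adjusted p = 0.283) and 0.73 (adjusted p = 0.563). The part of cell cycle phase in the 73 calls was not tested.

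**Figure D4:**
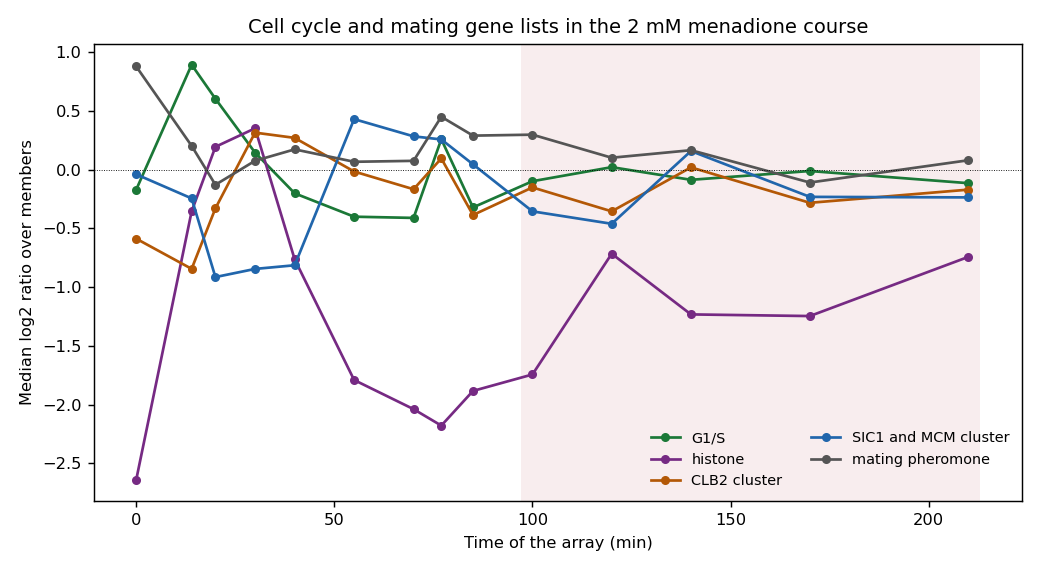
Median log2 ratio over the members of 5 cell cycle and mating gene lists on each array of the course against time in min, with the late window shaded. The histone list runs from -2.64 to 0.19 between 0 and 20 min and lies between -1.74 and -0.72 in the late window, where the G1/S list keeps between -0.12 and 0.02.

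Next, the late window was set against 55 to 85 min, to ask whether levels went on changing. No gene of 5552 passed (0.0%), the smallest adjusted p was 0.209, and 360 genes had an unadjusted p under 0.05. The median SE of a gene's change was 0.44. Differences of 1.56 (CLN2) and -2.12 (RPT5, a proteasome gene) did not pass. The absence of calls therefore does not show that levels had stopped changing. At 55 to 85 min itself 106 genes differed from 0 to 20 min (1.91%), and this comparison shares its 3 early arrays with the late one. The 61 genes that rose late had changes of 0.67 to 5.84 at 55 to 85 min with a median of 2.60. Their change between the windows, late minus 55 to 85 min, ran from -0.88 to 1.64 with a median of 0.16, and was over 1 in size for 7 of them. The 61 genes were chosen for high values on these late arrays, so the difference leans upward by that choice.

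The copper chaperone ATX1 was one of these 7, with -0.46, 0.47, 0.54, 1.03 and 0.92 late, against -1.59, -1.11, -0.81 and -0.38 at 55 to 85 min. The difference of 1.47 ± 0.40 (SE) did not pass after adjustment (unadjusted p = 0.002 in limma). GLR1 had all 4 values of 55 to 85 min (1.96 to 2.20) above its late ones (-0.33 to 1.84), a difference of -1.31 ± 0.42 (SE) that did not pass either (unadjusted p = 0.0059). TPS1, trehalose-6-phosphate synthase, had -0.13 to 1.06 late, against 1.30 to 2.09 at 55 to 85 min, a difference of -1.28 ± 0.42 (SE, unadjusted p = 0.0071). CLN2 had the reverse pattern, with -0.25 to 0.44 late, all above the -2.44 to -1.01 of 55 to 85 min, a difference of 1.56 ± 0.46 (SE, unadjusted p = 0.0036). YPT11 differed by -1.44 ± 0.40 (SE, unadjusted p = 0.0021), with overlapping windows. None of these passed after adjustment. Ribosome biogenesis genes had a median change of -0.97 at 55 to 85 min and a median late minus middle difference of 0.33, the histone genes -1.06 and 0.67.

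Within the late window no gene had a slope over time that passed (0.0%, smallest adjusted p 0.294, 284 genes at an unadjusted p under 0.05). The median slope of all genes was 0.04 per hour on the log2 scale, with a median SE of 0.45. YRO2 had a slope of 0.87 ± 0.55 per hour (SE) and YNL134C one of -0.69 ± 0.62. Without the 210 min array 10 genes passed, 8 with a positive and 2 with a negative slope, so the count depends on that array. Over all genes, pairs of late arrays correlated at 0.344 to 0.484, late with 55 to 85 min arrays at 0.372 to 0.604, and late with 0 to 20 min arrays at 0.141 to 0.301, where the arrays share 1 reference and 1 culture.

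The late changes of the other courses are given beside those of this course, with no test, since each table was normalised separately and each course is 1 culture. The other menadione course was sampled at 4 times from 100 to 140 min against 4 times from 0 to 21 min, and its labels used here give no dose. The first peroxide course (0.24 mM) was sampled at 10 times from 105 to 275 min and the second, with no dose in its labels, at 5 times from 100 to 180 min, so the windows differ in length. OSI1 changed by 6.17 in this course, by 4.72 in the other menadione course, and by 0.79 and 2.31 in the first and second peroxide courses. FLR1 changed by 4.18, 3.34, 0.29 and 0.15 in the same order, and PST2 by 5.21, 4.53, 0.89 and 1.49. CCP1 changed by 4.99, 1.93, 1.74 and 4.56, and YGP1 by 3.72, 4.12, 3.19 and 3.40. The quinone and carbonyl reductase list had medians of 1.90, 1.42, 0.39 and 0.41, and the thioredoxin list 2.20, 1.28, 0.29 and 1.36. The cytosolic ribosomal protein list had -0.95, -1.05, -0.47 and -0.16. Over all genes the medians were 0.01, -0.01, 0.03 and 0.05. Of the 61 genes that rose in this course, 53 had a positive late change in the other menadione course and 8 a negative one, with a median of 1.67. The share of all genes with a positive or negative change there was not counted. For these genes and the falls below, only the all-gene median of -0.01 stands beside the counts. The 8 were GTT2 (3.97 here and -1.08 there), HSP30 (3.27 and -0.31), SHR3 (3.06 and -0.37), GID8 (2.72 and -0.96), YPL162C (2.51 and -0.38), NQM1 (2.18 and -0.24), TDH3 (2.06 and -0.12) and THI11 (2.04 and -0.52). Of the 12 falls, 10 were negative there, and RIX1 (-2.31 and 0.01) and YPT11 (-2.03 and 0.22) were not. NDI1 changed by 2.73 and 0.24.

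Between 5486 and 5549 genes had a value on an array, 6.31% to 14.5% of spots were missing, and array medians before centring ran from -0.06 to 0.29. The spread over genes (SD) was 0.87 to 1.18 on the late arrays, with the widest at 100 min, and 0.76 to 1.03 at 0 to 20 min. Of 25 called genes with several probes, 8 had probe changes more than 1 log2 unit apart. Fitted probe by probe, 68 of 9197 probes were called, in 59 genes, of which 43 were among the 73.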

How the data were processed

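RNA of 1 menadione course was measured on 14 2-colour arrays. The authors deposited log2 ratios (base assumed), with background correction, normalisation, spot filter and direction not given in the sources used here. Of 13056 probes, 9565 named 1 gene in the platform annotation and 3491 were unnamed and left out. Of the named probes, 9555 took their symbol from the reference through a gene identifier, whether or not it changed. The probes of a gene were averaged (5553 genes). Each array was centred on its median over genes. Genes with values on 75% of arrays and on at least 2 arrays per window were fitted in limma 3.58.1 (R 4.3.3), with 4 window means over all 14 arrays and eBayes. P-values were adjusted by Benjamini-Hochberg, with a threshold of 0.05. The fit was tested on simulated data, with noise drawn independently for each array. Of changes of size 1.5 it recovered 30% in late minus first, 40% in late minus middle and 39% in the slope per hour. At size 3 it recovered 92%, 95% and 95%. Genes were named if among the 12 called genes with the largest change in either direction (8 arrays measured, no overlap), among up to 3 called members per list or up to 6 per direction in the other comparisons, or in a set list. Other list members and called genes in the text were chosen after their values were seen. The window, members and lists were chosen with earlier results of these data known. Coordinates are not given, since the array's genome build is not named. Promoter sequences were not used here. The number of arrays limits the precision.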

Additional observations from a re-analysis of the deposited data

Results flagged for a closer look

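Within the late window 8 of 99 genes and lists had 1 array apart from the other 4 by Dixon's test, where chance gives about 1 in 20. At 100 min OSI1 stood at 4.10 (the others 5.50 to 5.64), CCP1 at 2.39 (4.63 to 5.26), TRX2 at 0.83 (1.47 to 1.60) and RNR3, a ribonucleotide reductase subunit, at 3.66 (0.30 to 1.26). At 140 min AAD14 stood at 0.063 (3.45 to 4.69). PGM1 stood at -2.79 at 170 min (-1.05 to -0.53). At 210 min GSH1 stood at 3.16 (1.29 to 1.72) and MET16 at 1.92 (0.31 to 0.77).

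In 4 cases every late array of this course lay on one side of the early mean and every late array of the other menadione course on the other side, a difference that was not tested. GTT2 changed by 3.97 here (5 arrays) and by -1.08 there (3 arrays). CLN2 changed by 0.73 and -0.42, CLB2 by 1.34 and -0.67, and the mean over arrays of the median of mitochondrial ribosomal protein genes by 0.29 and -0.08. Taken as the median of the changes of single genes, as for the lists above, that list had 0.21 and 0.01. Its opposite sign therefore depends on how the median is taken.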

How the results depend on the processing

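No paired analysis was possible because the titles carry no replicate numbers and each time is 1 array. The 73 late calls against 0 to 20 min became 66 to 97 under uncentred or scaled arrays, the median of probes, complete genes, no minimum share, robust moderation and array weights, 56 with the 8 arrays alone (51 of them shared), and 22 (without 20 min) to 65 with 1 array left out. With the late window as 100 to 140 min alone, or as 170 and 210 min alone, 32 genes passed (29 and 30 shared). By probe, an alternative chosen after seeing the data, 59 genes had a call. Late against 55 to 85 min stayed at 0, except 1 gene without 85 min, PUF3, an mRNA-binding protein (-2.48 ± 0.38 SE, adjusted p = 0.0445), so the range was 0 to 1. The slope count was 0 to 10, with 10 without 210 min. Of 40 named called genes, 16 passed under all 18 settings and none changed direction, and 3 of 25 named uncalled genes passed under some setting. The fit by probe is not among the 18, and for a gene with 2 probes the median equals the mean. Passing under all 18 thus does not cover probes that differ, as with TRX2, which is among the 16 (4.87 and -0.13). Of 408 list medians 30 moved by over 1 SD. An exact permutation test of 5 against 3 arrays cannot go below 0.0357. Signal over background was not used here.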
